A study of Mus musculus with 7 samples.

Results

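The genes described here are 10 transcriptional targets of the tumour suppressor p53 other than p21 (Cdkn1a): Mdm2, Ccng1, Phlda3, Btg2, Sesn1, Zmat3, Eda2r, Aen, Trp53inp1 and Plk2. They were taken as a list of names, with no measured value in the rule, but the list was chosen with earlier results of these data known. They comprise every non-control probe that the scanner files name for 1 of these genes, 19 probes of 56605 on the array and 10 genes of 22970 tested. RNA from hearts of adult female mice was hybridised to 7 one-colour Agilent arrays on 1 slide, with 3 arrays labelled wild type (Wild Type_189, Wild Type_183 and Wild Type_181) and 4 labelled Brg1 and Brm knockout (Mutant_175, Mutant_182, Mutant_187 and Mutant_188). In the knockout group, per the design text, tamoxifen induced loss of Brg1 (Smarca4) through a Cre-ERT recombinase under a myosin heavy chain (MHC) promoter, in mice already null for Brm (Smarca2), the alternative ATPase of the SWI/SNF chromatin remodelling complex. The wild type samples are labelled NTg and the knockout samples Tg, and both groups received tamoxifen. Whether the wild type mice carried Brm, and the time between tamoxifen and collection, are not given in the sources used here. Cardiomyocytes are the labelled cell type, yet the source is heart and the only extraction step described is a tissue RNA kit. Separate animals are implied by the sample numbers alone, so a p-value here reflects how these samples scatter, which may be technical. Wild type arrays fill 1 row of the slide and knockout arrays the other, so slide row and genotype cannot be told apart.

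p53 is a transcription factor that is kept low by the ubiquitin ligase Mdm2 and is stabilised by DNA damage and other stress. It then activates genes that hold back the cell cycle, limit growth signalling, repair DNA or promote cell death, and several of its targets, Mdm2 among them, feed back to restrain it. Cardiomyocytes of the adult heart rarely divide, and p53 in this tissue is known mainly from studies of overload, ischaemia and anthracycline injury. In bulk RNA, a change in the proportion of a cell type and a change of RNA per cell cannot be told apart.

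To show the regulatory sequence of the genes that stand at the centre of the results, the 250 bases before the transcription start of 4 members are given, 5′ to 3′ on the gene's strand, from RefSeq on build GRCm38.p6. Capitals mark each exact match to the p53 half-site, the decamer of which a full p53 response element holds a pair, and in Btg2 the letters TGACGTCA, the cAMP response element. The windows are chr10:117710759-117711008 for Mdm2, chr11:40755287-40755536 for Ccng1, chr1:135765835-135766084 for Phlda3 and chr1:134079156-134079405 for Btg2, with Phlda3 on the plus strand and the others on the minus strand.
Mdm2: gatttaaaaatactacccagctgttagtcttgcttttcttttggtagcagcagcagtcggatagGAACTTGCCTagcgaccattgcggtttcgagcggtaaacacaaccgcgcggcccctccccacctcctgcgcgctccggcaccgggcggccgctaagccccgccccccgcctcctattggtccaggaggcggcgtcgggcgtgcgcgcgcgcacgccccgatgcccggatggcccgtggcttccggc
Ccng1: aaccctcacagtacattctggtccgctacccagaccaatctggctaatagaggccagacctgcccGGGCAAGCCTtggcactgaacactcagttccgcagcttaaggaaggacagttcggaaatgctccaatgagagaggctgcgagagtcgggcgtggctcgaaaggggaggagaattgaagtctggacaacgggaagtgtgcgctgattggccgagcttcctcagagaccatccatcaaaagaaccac
Phlda3: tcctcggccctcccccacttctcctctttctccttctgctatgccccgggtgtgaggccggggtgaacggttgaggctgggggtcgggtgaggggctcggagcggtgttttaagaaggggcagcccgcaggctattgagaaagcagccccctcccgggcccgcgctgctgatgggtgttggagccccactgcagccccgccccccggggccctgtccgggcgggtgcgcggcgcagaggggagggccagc
Btg2: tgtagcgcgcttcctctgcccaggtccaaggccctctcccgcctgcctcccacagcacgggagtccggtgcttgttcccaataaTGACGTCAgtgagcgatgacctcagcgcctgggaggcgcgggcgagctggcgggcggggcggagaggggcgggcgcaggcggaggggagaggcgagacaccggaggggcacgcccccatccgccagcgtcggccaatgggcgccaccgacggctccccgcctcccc

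Of the 10 members, 8 were found in the promoter table, with 10 windows of 300 bases (250 before to 50 after the start). Zmat3 and Trp53inp1 were not matched. Both strands were covered by 1 search, since the half-site consensus is its own reverse complement. An exact half-site was present in 5 of these windows, and in 2745 (8.36%) of all 32851 promoter windows. The 2 Aen windows overlap and share the match GGGCTTGTCC. One of the 2 Sesn1 windows held AAGCTTGTTT, from -173 to -164 of the start on chromosome 10. A pair of half-sites at most 13 bases apart was found in 0 member windows and in 24 (0.0731%) of all windows. Btg2, Phlda3 and Eda2r, which rose (below), and Plk2, which was not called, had no exact half-site in this window. A match was present in Ccng1, which fell (GGGCAAGCCT), in 1 of the 2 windows of Sesn1, which rose, and in Mdm2 and Aen, which were not called. TGACGTCA, a motif searched for after the sequences were seen, was in the Btg2 and Plk2 windows and in 588 (1.79%) of all windows. These matches are descriptions of letters, and elements outside the windows, such as those in introns, were not searched.

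Levels below are the processed signal divided by the array's 75th percentile over all non-control probes, so that a level of 1 equals that percentile. They are compared only within a probe, or as sums over the same probes on each array, in which bright probes weigh most. A log2 fold change is the knockout mean less the wild type mean, with Benjamini-Hochberg adjusted p-values from limma over all 22970 genes and a threshold of 0.05. Smarca4 was lower in all knockout arrays, at 5.87 to 14.9 against 32.8 to 34.7 in wild type (log2 fold change -1.87). Its level among the knockouts was lowest in Mutant_175. Whether this probe lies in the deleted part is not known. Smarca2 (Brm) was not called, at 1.82 to 2.04 in wild type and 1.89 to 2.21 in knockout (0.08 in log2, adjusted p = 0.59, limma). Whether the Smarca2 probe lies in a part removed in the Brm null mice is not known either. Between 58.1% and 63.6% of non-control spots per array exceeded background clearly and 0 were saturated. With so few arrays, precision is limited throughout.

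All 10 members had at least 1 probe that passed the filter on dim signals (well above background on at least 3 arrays), 17 of the 19 probes in all. Of the 10 genes, 5 rose (Btg2, Phlda3, Eda2r, Zmat3 and Sesn1), 1 fell (Ccng1) and 4 were not called (Mdm2, Aen, Trp53inp1 and Plk2). Over all genes tested, 42.1% were called in either direction, 16.3% higher and 25.8% lower. The groups did not overlap for 8 members, 6 higher and 2 lower. Of all genes, 51.1% did not overlap, 19.6% higher and 31.6% lower. The members' median log2 fold change was 0.40, against -0.12 over all genes. Since the list was chosen with earlier results known, these comparisons with all genes are descriptions only. Scaling to 7 spike-in RNA probes in place of the percentile added 0.57 to the median over all genes, so each direction here is relative to the array's 75th percentile. With spike-in scaling 6 members were called higher, Aen in addition, and 1 lower. The plot of levels by array shows each member on its own axis.

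**Figure D1:**
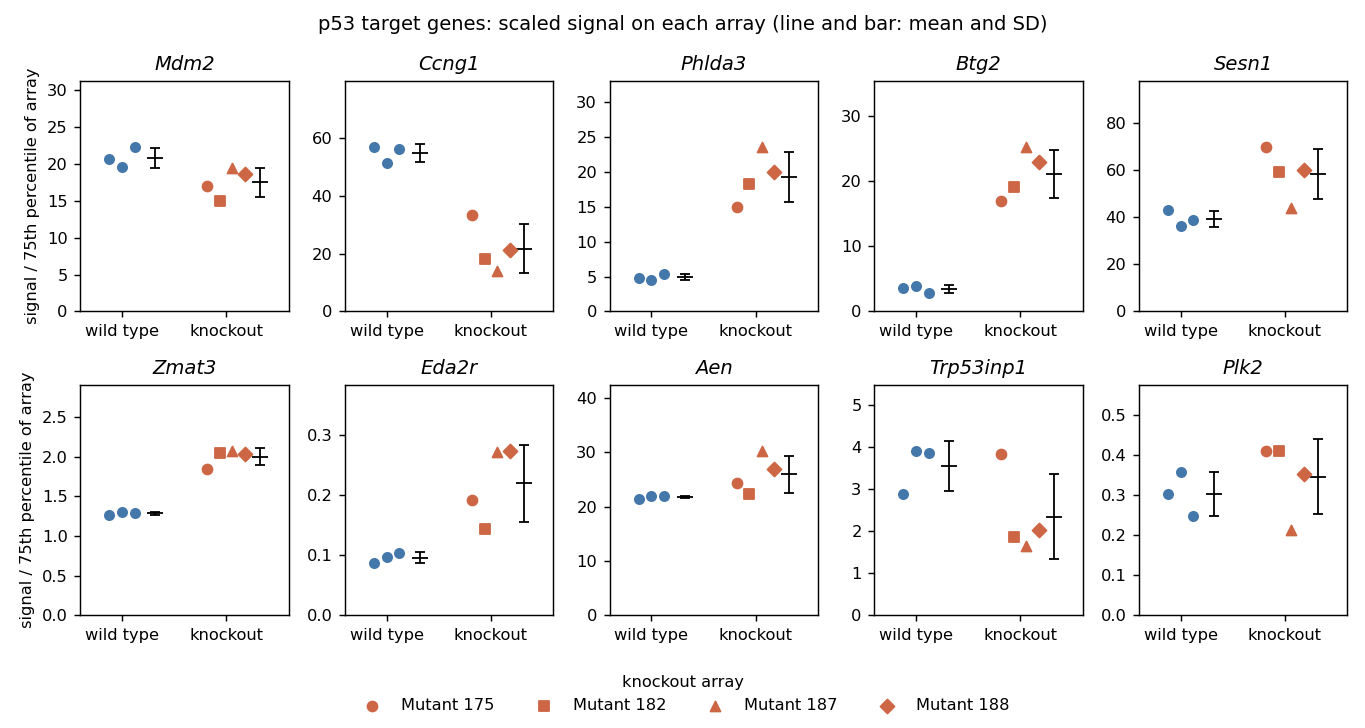
Level of each of the 10 genes on each array (processed signal divided by the array's 75th percentile, linear axes that start at 0), with wild type in blue (n = 3), knockout in orange (n = 4, a symbol per array), and the mean and SD beside each group. Btg2 and Phlda3 stand far above wild type on every knockout array, Ccng1 below, and in Trp53inp1 the array Mutant_175 lies within the wild type range.

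Btg2 rose most of the members. Btg2, a transcriptional cofactor that recruits deadenylases and restrains passage from G1 to S phase, had wild type levels of 3.66 (Wild Type_181), 3.86 (Wild Type_183) and 2.76 (Wild Type_189). The knockout levels were 17.0 (Mutant_175), 19.1 (Mutant_182), 25.3 (Mutant_187) and 23.0 (Mutant_188), and arrays are listed in this order throughout. Every knockout array was thus far above every wild type array, 6.14-fold on average. The log2 fold change was 2.62 (SE 0.19), with an adjusted p of 8.2e-05 by limma. This probe lies at chr1:135973828-135973887 of build mm9. The other Btg2 probe, at chr1:135972094-135972153, gave 2.69, 2.47 and 1.82 in wild type and 11.5, 12.1, 17.9 and 14.7 in knockout, in the same order of arrays. Its log2 fold change was 2.59 (SE 0.21), close to the 2.62 of the first probe. Both probes were read on the same arrays, so their errors are not independent. The genes nearest to Btg2 over the 7 arrays, by the Euclidean distance between log2 values set to each gene's wild type mean, were Ntsr2, a neurotensin receptor (0.40), Rras2, a Ras-related GTPase (0.42), Hebp2, a heme-binding protein (0.42), and Efcab15 (0.52). That measure of likeness rests on 7 arrays and is a description.

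Phlda3, a pleckstrin homology protein that competes with the kinase Akt for membrane lipid, had wild type levels of 4.81, 4.55 and 5.42. In the knockout arrays, ordered as above, they were 15.0, 18.3, 23.6 and 20.0. The groups were far apart, at 3.86-fold, or 1.95 in log2 (SE 0.17), with an adjusted p of 0.00017 by limma. Its only probe lies at chr1:137665642-137665701 (mm9).

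Ccng1, cyclin G1, which recruits a phosphatase that acts on Mdm2, was the only member called lower. Its levels were 56.8, 51.1 and 56.0 in wild type and 33.4, 18.3, 14.1 and 21.1 in knockout. The groups did not overlap, and Mutant_175 lay between the wild type and the other knockout arrays. The log2 fold change was -1.40 (SE 0.27, adjusted p = 0.0054, limma), a 2.64-fold lower level. The only probe lies at chr11:40562427-40562486 (mm9).

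Sesn1 (sestrin 1), which restrains the growth kinase complex mTORC1 and takes part in the defence against oxidants, had levels of 42.8, 36.1 and 38.8 in wild type and 69.7, 59.0, 43.8 and 60.1 in knockout. Mutant_187 was just above the highest wild type array, and the other knockout arrays were well above it. The log2 fold change was 0.55 (SE 0.17, adjusted p = 0.035, limma). This call was lost without the filter on dim probes (adjusted p = 0.066, limma) and when any of Wild Type_181, Wild Type_183, Wild Type_189, Mutant_182 or Mutant_188 was left out (adjusted p = 0.063 to 0.12, limma). The probe lies at chr10:41628000-41628059 (mm9).

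Zmat3 (also called Wig1), a zinc finger protein that binds RNA, showed the tightest replicates of the members called. Levels were 1.27, 1.30 and 1.29 in wild type and 1.85, 2.05, 2.08 and 2.03 in knockout, with no overlap. The rise was small and precise, at 1.55-fold, or 0.64 in log2 (SE 0.10, adjusted p = 0.0023, limma). Its probe lies at chr3:32233831-32233890 (mm9).

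Eda2r, a receptor of the TNF receptor superfamily for the A2 form of ectodysplasin, had low levels throughout, 0.0867, 0.0970 and 0.104 in wild type and 0.192, 0.143, 0.271 and 0.273 in knockout. All 7 arrays were well above background on this probe (chrX:94529458-94529517, mm9), and every knockout array exceeded every wild type array. The log2 fold change was 1.15 (SE 0.24, adjusted p = 0.0078, limma), or 2.22-fold. It was smaller, at 0.74 (adjusted p = 0.010, limma), with normexp background correction and quantile normalization. The other Eda2r probes, at chrX:94533873-94533932 and chrX:94534281-94534340, were well above background on 0 of 3 wild type and 1 of 4 knockout arrays and were not tested. For the former, the knockout mean was 1.24-fold the wild type side, taken per array as the dimmest signal still called well above background. That mean covers all 4 knockout arrays, and only 1 was well above background, so the ratio is not a firm lower bound. The latter gave no ratio above 1.

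Mdm2, the ligase that degrades p53, did not pass the threshold. On the brighter probe (chr10:117126010-117126069, mm9) levels were 20.6, 19.6 and 22.3 in wild type and 17.0, 14.9, 19.4 and 18.6 in knockout. The groups did not overlap, by a narrow margin between Wild Type_183 and Mutant_187, and the log2 fold change was -0.26 (SE 0.13, adjusted p = 0.14, limma), with a 95% interval from -0.56 to 0.05. With spike-in scaling its sign turned, to 0.31 (adjusted p = 0.19, limma). The second Mdm2 probe, a 60-base sequence whose ends are mapped to chr10:117139375-117142253 and which therefore bridges a splice junction, had levels of 0.256, 0.284 and 0.309 in wild type and 0.234, 0.245, 0.308 and 0.250 in knockout. These ranges overlap, with a log2 fold change of -0.13 (SE 0.14).

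Aen, an exonuclease that acts in apoptosis, is covered by 5 probes, and these did not give 1 value. On the brightest (chr7:86053207-86053266, mm9) levels were 21.5, 22.0 and 21.9 in wild type and 24.3, 22.4, 30.3 and 26.9 in knockout, or 0.24 in log2 (SE 0.13, adjusted p = 0.17, limma). A probe that shares 50 bases with it gave 0.29 and one at chr7:86052909-86052968 gave 0.36. On all of these the knockout arrays were above the wild type arrays, with no overlap. The probe at chr7:86044485-86044544, designed on another transcript, gave 0.00 and its groups overlapped. The probe at chr7:86055764-86055823, also on another transcript, had levels of 0.674, 0.650 and 0.898 in wild type and 0.347, 0.413, 0.661 and 0.532 in knockout, a log2 fold change of -0.63 (SE 0.24), and was not called. With quantile normalization the brightest probe passed the threshold, at 0.44 (adjusted p = 0.029, limma), as it did with spike-in scaling, at 0.81 (adjusted p = 0.0087, limma).

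Trp53inp1, a nuclear and autophagy protein that promotes p53 activity, split the knockout group. Levels were 2.87, 3.90 and 3.86 in wild type, while in knockout Mutant_175 had 3.83 and Mutant_182, Mutant_187 and Mutant_188 had 1.86, 1.64 and 2.04. The groups overlapped only through Mutant_175, and the log2 fold change was -0.67 (SE 0.30, adjusted p = 0.11, limma). Without Mutant_175, the array seen to differ, it was -0.93 (adjusted p = 0.0039, limma). With any other single array left out, Trp53inp1 was not called (adjusted p = 0.11 to 0.26, limma). With spike-in scaling of all 7 arrays the log2 fold change was -0.10 (adjusted p = 0.78, limma). A dimmer probe at chr4:11092530-11092589 gave -0.51, with 0.286 in Mutant_175, 0.120 to 0.201 in the other knockouts and 0.241 to 0.285 in wild type. The brighter probe is at chr4:11101174-11101233 (mm9).

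Plk2, a polo-like kinase of the centriole cycle, had levels of 0.302, 0.358 and 0.248 in wild type and 0.410, 0.409, 0.213 and 0.351 in knockout. Mutant_187 was the lowest of all 7 arrays, and Mutant_175 and Mutant_182 the highest. The log2 fold change was 0.16 (SE 0.26, adjusted p = 0.64, limma), with a 95% interval from -0.44 to 0.76. Its probe maps to chr13:111187720-111187900 (mm9), a span longer than its 60 bases. Exons and untranslated regions are not given for any probe, since no mm9 gene models were used.

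Across the 17 probes that passed the filter, 6 were called higher and 1 lower when each probe was tested as its own row, where 40.5% of 34480 probes were called in either direction, 16.5% higher and 24.0% lower. The groups did not overlap for 9 of these probes with knockout higher and for 2 with it lower, while over all 34480 probes 20.0% did not overlap with knockout higher and 29.6% with it lower, 49.6% in all. Both Btg2 probes, both Mdm2 probes and both Trp53inp1 probes had the same sign, and Aen was the member whose probes differed in sign.

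**Figure D2:**
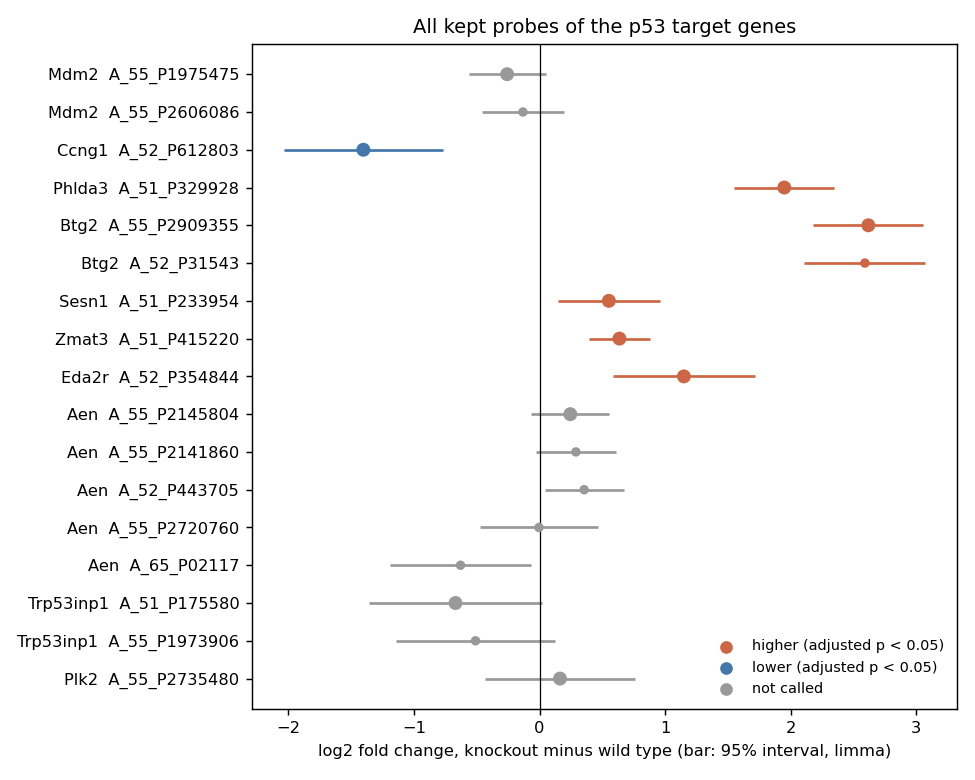
Log2 fold change (knockout minus wild type) of each of the 17 kept probes with its 95% interval from limma, coloured by call, with a larger point for the probe that represents the gene. The Btg2 probes lie together near 2.6, and the 5 Aen probes run from -0.63 to 0.36.

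The 4 knockout arrays ranked differently for different members. Mutant_175 was the highest and Mutant_187 the lowest knockout array for Ccng1, Sesn1, Trp53inp1 and Plk2. The reverse order, Mutant_187 highest and Mutant_175 lowest, held for Phlda3, Btg2 and Zmat3. Over all genes tested, 21.3% had the former order and 16.6% the latter. Cdkn1a, not a member, followed the former order, with 22.1 in Mutant_175 and 11.8 in Mutant_187. Mutant_175 also differed in other respects. The summed level of the proliferation genes Mki67, Top2a, Ccnb1 and Cdk1 was 0.813 in Mutant_175, 0.712 to 0.939 in wild type and 4.67 to 11.2 in the other knockouts. For 1 of these 4 genes, every knockout array, Mutant_175 included, was above every wild type array, as for 19.6% of all genes. The part of these differences in the members' order was not tested.

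**Figure D3:**
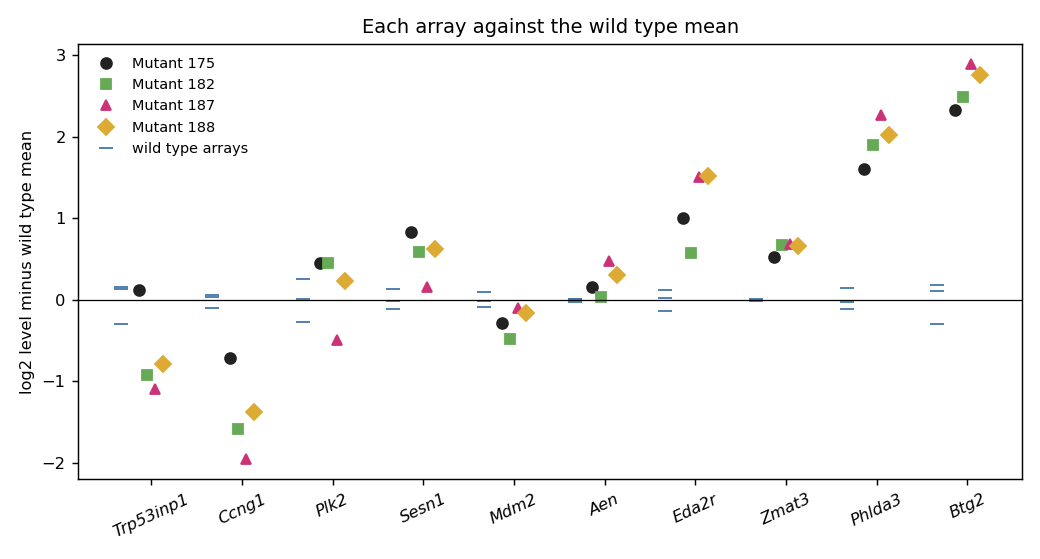
Log2 level of each array minus the wild type mean, for the 10 genes, with a symbol per knockout array and dashes for the wild type arrays. Mutant_175 is the uppermost knockout symbol for Trp53inp1, Ccng1, Plk2 and Sesn1 and the lowest for Zmat3, Phlda3 and Btg2.

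Most fibroblast, macrophage and T lymphocyte markers tested were higher in knockout. Over all genes tested, 16.3% were called higher and 25.8% lower. Of 8 fibroblast markers 7 were called higher and none lower, and the smallest log2 fold change was 0.01. Their summed level was 278.3 to 304.3 in wild type and 477.2 to 625.7 in knockout. Of 6 macrophage markers 4 were higher, at 35.4 to 37.4 and 46.8 to 93.9, and of 3 T lymphocyte markers tested 2 were higher, at 6.56 to 8.89 and 8.92 to 13.6. Of 4 smooth muscle markers 1 was higher, Acta2, and of 5 endothelial markers 2 were lower, with 3 not called in each list. The 8 cardiomyocyte markers were bright in all arrays, and 6 were lower, with sums of 3673 to 4065 in wild type and 1886 to 2454 in knockout. The part of these shifts in the members' changes was not tested.

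The p53 gene was not called. Trp53 had levels of 0.366, 0.379 and 0.425 in wild type and 0.253, 0.523, 0.612 and 0.411 in knockout, and the groups overlapped (0.13 in log2, SE 0.29, adjusted p = 0.74, limma). Of 19 regulators tested, 1 was higher, 6 lower and 12 not called, where 16.3% of all genes were higher and 25.8% lower, and the median log2 fold change was -0.24 beside -0.12 over all genes. Those called lower included Trp63, a p53 family member (-1.06, adjusted p = 0.00049, limma), Crebbp, a histone acetyltransferase that is a p53 coactivator (-0.56), Mdm4, the partner of Mdm2 in holding p53 in check (-0.71), and Cop1, a ubiquitin ligase of p53 (-0.47). Usp7, which removes ubiquitin from p53 and Mdm2, was higher (0.33, adjusted p = 0.042, limma). With spike-in scaling 3 regulators were called higher and 0 lower (limma, with 1 lower at an unadjusted p under 0.05), the signs of Crebbp and Cop1 turned (to 0.01 and 0.09), and the median was 0.33. Without Wild Type_183 there were 3 lower and without Wild Type_189 there were 2, and in both cases 0 were higher (limma). At an unadjusted p under 0.05, both settings had 7 lower and 0 higher, against 8 and 1 with all arrays. Without Mutant_175 there were 2 higher and 8 lower.

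Other p53 targets moved both ways. Of 33 tested from a list of 34, 8 were higher, 7 lower and 18 not called, with a median of -0.02. Over all genes tested, 16.3% were higher and 25.8% lower. When only probes clearly over background on all arrays were used, 31 were tested, with 6 higher and 8 lower. Cdkn1a (p21), an inhibitor of cyclin-dependent kinases, had 2.10, 3.35 and 4.37 in wild type and 22.1, 17.5, 11.8 and 13.4 in knockout. It rose in every knockout array, by 2.33 (SE 0.30, adjusted p = 0.00097, limma). Higher too were Rprm (reprimo, an inhibitor of mitotic entry), by 5.57 (clearly over background in 2 of the 3 wild type samples), Psrc1 (a spindle protein) by 2.85, and Pmaip1 (Noxa, a BH3-only death protein) by 1.35. With normexp and quantile normalization the values of the dim genes were smaller, at 4.14 for Rprm, 1.64 for Psrc1 and 0.97 for Pmaip1, all still called. The lower genes with the smallest p were Ptp4a3, a phosphatase (-1.65, adjusted p = 8.5e-05, limma), Ak1, the adenylate kinase of muscle (-1.42), Fdxr, the mitochondrial ferredoxin reductase (-1.04), and Gadd45a, a growth arrest gene (-1.45). Gtse1 had only a lower bound, since every wild type array lacked a signal clearly over background. It counts among the 8 called higher, though it passed the filter only through knockout arrays. Spike-in scaling gave 14 higher calls and 3 lower ones in this list and a median of 0.55, and Fdxr was no longer called. Without Mutant_175 the counts were 12 higher and 9 lower, and without Wild Type_183 they were 5 and 6.

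**Figure D4:**
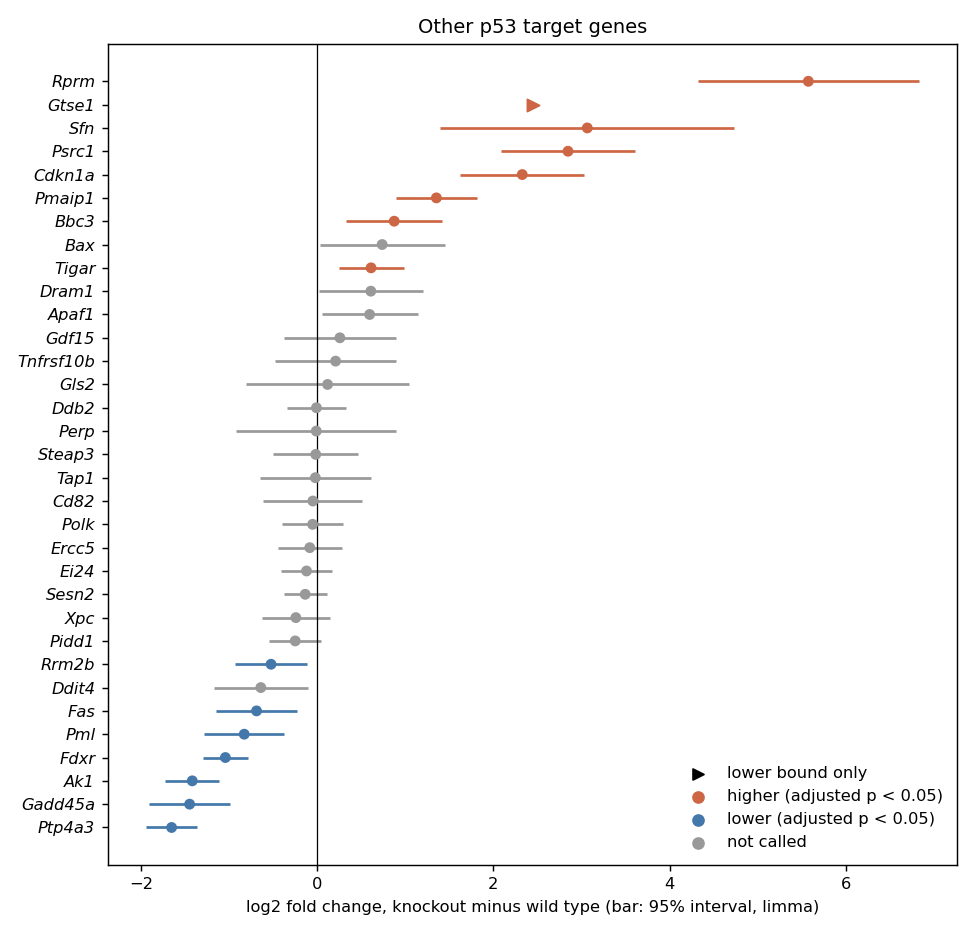
Log2 fold change (knockout minus wild type) and 95% interval from limma for the 33 other p53 target genes tested, sorted and coloured by call. A triangle marks Gtse1, for which a lower bound of 5.47-fold is drawn. From 8 genes called higher to 7 called lower, beside 16.3% and 25.8% of all genes, the list spans both sides of 0.

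Of 17 paralogs of the members tested, 4 were higher and 5 lower, beside 16.3% and 25.8% of all genes, and their median log2 fold change was -0.05 (0.51 with spike-in scaling, 9 higher and 2 lower). Phlda1, a relative of Phlda3, rose by 1.65 (adjusted p = 0.00012, limma), and Btg3, of the Btg2 family, by 0.46. Plk1, the mitotic polo-like kinase, rose by 3.22 and Plk4, which starts centriole duplication, by 1.25, while Plk2 was not called. Sesn3, a sestrin like Sesn1, fell, with a log2 fold change of -0.78, but was not called with spike-in scaling (-0.21, adjusted p = 0.45, limma). Also lower were Trp53inp2 (-1.0), Zmat1 (-1.28) and Edar, the receptor for the A1 form of ectodysplasin (-1.90). With spike-in scaling Trp53inp2 was not called either (-0.44, adjusted p = 0.11, limma). Edar was clearly over background on 2 of 4 knockout arrays. With normexp and quantile normalization Edar was -0.74 and Plk4 0.73, both still called. Mdm4 and Sesn2 are in this list and in 1 of the lists above. Without Wild Type_183 or without Wild Type_189, 1 paralog was higher and 4 lower.

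**Figure D5:**
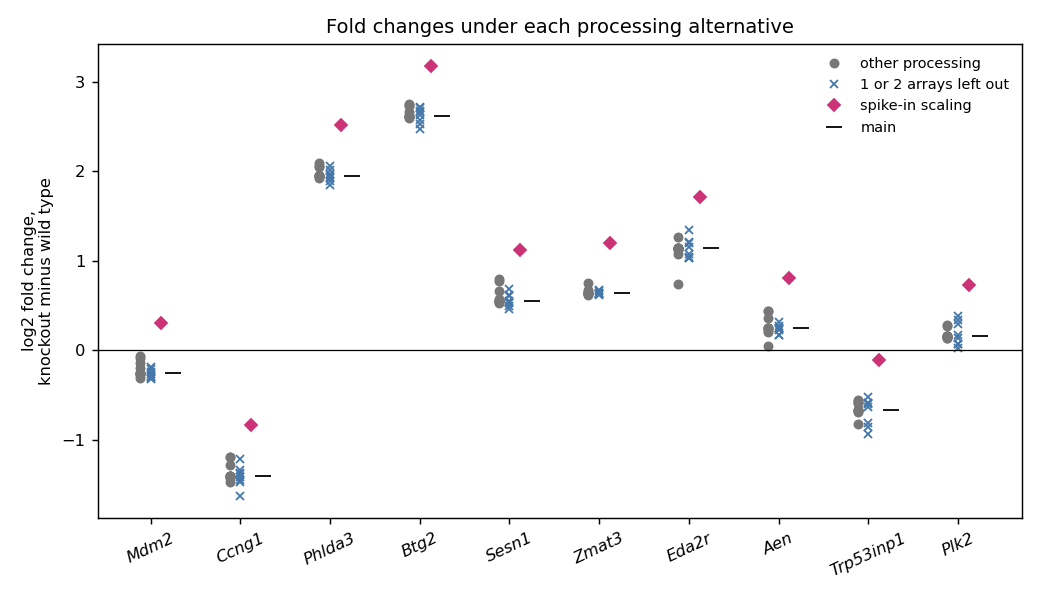
Log2 fold change (knockout minus wild type) of the 10 genes under the main setting (dash) and each of 19 alternatives. Spike-in scaling (diamonds) lies above the other settings for each gene, and it moves Mdm2 across 0.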

How the data were processed

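Processed one-colour arrays of 7 heart RNA samples were used. Per the file headers, the authors deposited Agilent Feature Extraction 10.7.3.1 output, whose processed signal is a linear intensity after background correction. Its flags mark spots that are saturated, outlying or clearly over background. Probe coordinates are on mm9. The authors also deposited a value table, an alternative here, whose cells were the same intensity: at least 99.5% on each array lay within 0.01 (log2) of the scanner value, with column medians of 47.2, 45.6 and 50.4 in wild type and 65.0, 82.6, 80.3 and 60.8 in knockout, so it is linear, not log-transformed, and not centred.

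Outlier spots (82 to 146 per array) were left out, spots of a probe averaged, and log2 taken relative to the array's 75th percentile. The filter kept 34481 probes (60.9%), those clearly over background on 3 or more arrays. A gene was its kept probe with the highest mean. Probes were named through their accession in a table of assembly GRCm38.p6 (32994 matched), and members by the file's own name. The groups were compared with limma 3.58.1 (lmFit, eBayes) in R 4.3.3. Figures used matplotlib 3.10.9.

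The members and lists were chosen with earlier results of these data known. Named were all members, Cdkn1a, Trp53, Smarca4 and Smarca2. Also named were up to 4 genes per direction and list by p, and the 4 genes most like the member with the largest change. Gtse1, Bax, the markers' Acta2 and the motif TGACGTCA were singled out after values or sequences were seen. Alternatives were quantile normalization, median scaling, the percentile restricted to probes clearly over background everywhere, spike-in scaling, normexp with offset 50 and quantile normalization, the value table, no filter, a filter requiring all arrays, averaged probes per gene, array weights, a robust prior with trend, each array left out, and Mutant_175 and Mutant_187 left out together. All arrays share 1 slide and 1 scan, and neither could serve as a batch term. The fit was tested on simulated data with 200 changed genes of 22941. It recovered 2.54%, 43.7% and 81.4% of planted changes of size 0.5, 1 and 2, so in that simulation small changes were mostly missed. Far fewer genes were changed there than were called in these data, so these shares may not carry over. Some changes near 0.5 were called here, such as that of Sesn1 (0.55).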

Additional observations from a re-analysis of the deposited data

How the results depend on the processing

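The calls of Btg2, Phlda3, Zmat3, Eda2r and Ccng1 kept their direction and side of the threshold under all 19 alternatives, with log2 fold changes of 2.47 to 3.19, 1.84 to 2.52, 0.62 to 1.20, 0.74 to 1.72 and -1.63 to -0.84. Plk2 was called under none of them (0.03 to 0.73). Of the other members, the sign turned only for Mdm2, at 0.31 with spike-in scaling. Sesn1 lost its call under 6 alternatives and Aen and Trp53inp1 each gained one under 3. Member genes called lower numbered 2 with array weights and without Mutant_175 and Mutant_187 together, and 1 to 2 with each array left out. Member probes called lower numbered 4 under both of the former and 1 to 3 with each array left out. Regulators called higher numbered 0 with median scaling, with no filter and with averaged probes (limma, with 1, 1 and 0 at an unadjusted p under 0.05), 2 with array weights, 3 with spike-in scaling and 0 to 2 with each array left out. Regulators called lower numbered 0 with spike-in scaling and 2 to 8 with each array left out. Other targets called higher numbered 14 with spike-in scaling and 5 to 12 with each array left out, and those called lower 3 with spike-in scaling. Paralogs called higher numbered 9 with spike-in scaling and 1 to 4 with each array left out, and those called lower 2 with spike-in scaling. Over all genes, spike-in scaling called 8539 higher and 1710 lower, against 3749 and 5932, and moved the share of higher calls from 38.7% to 83.3%. That share was 49.5% with the percentile restricted to probes clearly over background everywhere. For spike-in scaling the shift is uniform over genes by construction, and for the other changes the cause was not tested. Dim probes, among them 2 of Eda2r, give at most a bound. No paired analysis was possible because samples of different groups share no replicate number.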

Other observations

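Bax, the mitochondrial pore-forming death protein and another p53 target, was singled out after its values were seen. Its levels were 4.94, 4.47 and 5.37 in wild type and 4.66, 8.36, 12.4 and 9.32 in knockout, so that Mutant_175 alone lay within the wild type range. In log2 the difference was 0.74 (adjusted p = 0.089, limma) with all arrays and 1.01 (adjusted p = 0.0037, limma) without Mutant_175. Because Mutant_175 was picked for its place within the wild type range, the smaller p-value is a description only. Cdkn1a was highest in that same array, and its call did not depend on it (2.16 without Mutant_175, adjusted p = 0.0015, limma). In Mutant_175, Trp53 was the lowest of all 7 arrays, at 0.253.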
